A study of Mus musculus with 30 samples.

Results

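Cholesterol synthesis and sterol control were followed here through 30 genes chosen by name: 19 enzymes of the route to cholesterol, 5 genes of sterol sensing and 6 genes of sterol transport, uptake and storage. Of these, 28 had a row with a single gene symbol on the array (18 enzymes, 5 sensing genes and 5 transport genes) among 19938 genes in all, and Acat2 and Soat1 were not analysed here. The samples were CD8+ T cells of C57BL/6 spleens carrying Pmel-1, a transgenic T cell receptor, from adult mice of 6-12 weeks that are all labelled female. TMem were memory cells differentiated in vitro (Ly5.2 Pmel-1 Tg) and TN were naive cells, or after stimulation cells derived from them (Ly5.1 Pmel-1 Tg). All samples were FACS-sorted cells, unstimulated (0 h) or 18 h or 96 h into stimulation by antibodies to CD3 and CD28 plus IL-2, with the other cell type present (mix) or absent (alone). The 10 groups (TMem mix and TN mix at 18 h and 96 h, TMem alone and TN alone at 0 h, 18 h and 96 h) had 3 arrays each, which the submitters call biological repeats; both cell types carry the same receptor and every stimulated group received the same agents. TMem arose in culture rather than in an animal, which limits them as a model of memory cells.

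Cells make cholesterol from acetyl-CoA by way of mevalonate, isoprenoid diphosphates, squalene and lanosterol. When sterols in the endoplasmic reticulum are low, SCAP escorts the SREBP factors to the Golgi, where they are cleaved and go on to switch on the synthesis genes, while INSIG proteins hold SCAP back when sterols are plentiful. Sterol surplus is met by LXR, whose targets include efflux transporters, and dividing T cells are known to raise synthesis and lower efflux after activation.

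Promoter sequences (RefSeq, build GRCm38.p6, 250 bases before to 50 after a gene's start) were found for 22 of the genes, in 30 windows. The windows are shown for Msmo1 (chr8:64733529-64733828, minus strand), Insig1 (chr5:28071162-28071461, plus strand) and Hmgcs1 (chr13:119690101-119690400, plus strand), the genes with the largest differences between TN mix and TN alone at 96 h. Idi1 (chr13:8885356-8885655, plus strand) and Idi2 (chr13:8952613-8952912, plus strand), neighbouring genes for one enzymatic step, are shown because their values ran apart. Capitals mark matches, on either strand, to TCACNCCAC (a form of the sterol regulatory element bound by SREBP), CCAAT (the box bound by NF-Y) and CACGTG (an E-box).
Msmo1: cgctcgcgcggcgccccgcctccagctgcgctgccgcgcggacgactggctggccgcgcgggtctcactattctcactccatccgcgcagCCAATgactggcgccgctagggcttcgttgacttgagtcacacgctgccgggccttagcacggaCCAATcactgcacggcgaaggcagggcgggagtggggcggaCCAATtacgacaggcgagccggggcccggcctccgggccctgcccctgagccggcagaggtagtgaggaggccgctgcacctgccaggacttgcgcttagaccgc
Insig1: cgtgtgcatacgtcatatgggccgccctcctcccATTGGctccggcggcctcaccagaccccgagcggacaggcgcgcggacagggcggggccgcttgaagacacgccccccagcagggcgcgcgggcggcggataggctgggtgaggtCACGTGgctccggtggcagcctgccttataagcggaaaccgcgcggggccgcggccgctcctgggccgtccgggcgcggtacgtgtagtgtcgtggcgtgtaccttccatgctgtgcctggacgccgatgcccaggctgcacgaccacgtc
Hmgcs1: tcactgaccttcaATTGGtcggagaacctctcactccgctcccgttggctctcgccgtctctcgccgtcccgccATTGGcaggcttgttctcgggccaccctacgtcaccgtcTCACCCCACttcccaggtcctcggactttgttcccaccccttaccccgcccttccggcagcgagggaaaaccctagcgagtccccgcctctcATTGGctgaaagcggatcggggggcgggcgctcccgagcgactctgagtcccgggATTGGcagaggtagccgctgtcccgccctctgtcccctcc
Idi1: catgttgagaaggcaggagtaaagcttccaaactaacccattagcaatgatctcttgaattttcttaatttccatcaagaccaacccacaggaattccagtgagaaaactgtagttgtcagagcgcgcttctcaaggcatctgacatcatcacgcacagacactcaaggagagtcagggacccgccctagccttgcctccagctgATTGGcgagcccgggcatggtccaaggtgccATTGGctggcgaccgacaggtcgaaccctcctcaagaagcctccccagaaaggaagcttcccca
Idi2: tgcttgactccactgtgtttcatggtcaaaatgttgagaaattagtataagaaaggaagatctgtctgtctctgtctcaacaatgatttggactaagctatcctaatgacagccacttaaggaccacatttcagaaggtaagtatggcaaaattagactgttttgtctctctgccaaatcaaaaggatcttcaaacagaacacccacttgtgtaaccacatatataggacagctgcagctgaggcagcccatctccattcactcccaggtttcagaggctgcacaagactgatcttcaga
Only the Hmgcs1 window held TCACNCCAC, at position -137 from the start; this motif was in 1.24% of the 32851 promoters of the table. CCAAT was in 19 of the 22 genes (20 of 30 windows, 66.7%, against 37.4% of all promoters), and CACGTG in 6 of them (7 windows, 23.3%, against 7.15%). Matches to different motifs did not overlap in these windows, and the Idi2 window held none of the motifs. A match describes letters in a window and is not a binding site.

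The values were the deposited log2 expression values. Array medians over all rows lay between 6.76 and 6.94. Over the 19938 genes they lay between 6.778 (TN mix 18 h replicate 2) and 7.171 (TN mix 96 h replicate 1), and arrays of one group correlated at 0.9784 to 0.9979. A difference is a log2 difference of group means with its standard error (SE) from a limma fit over all 30 arrays, and a gene was called higher or lower at a Benjamini-Hochberg adjusted p under 0.05 over all genes. The number of arrays limits the precision of each value. Of the 28 genes, only Idi2 had group means below the lower quartile of its arrays (near background). CD8 T cell markers were high throughout (7 of 7, array means 11.16 to 12.31). Transcripts linked to sex did not follow the labels: the group means of Xist were near background in all 5 TMem groups (arrays 4.99 to 6.02), with the Y-linked Eif2s3y at 8.82 to 9.51. TN alone at 0 h and 96 h showed the opposite (Xist 9.34 to 12.11, Eif2s3y near background at means of 4.19 and 4.17), and TN alone at 18 h and TN mix at both times had both (Xist 10.95 to 11.78, Eif2s3y 7.34 to 8.50).

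In naive cells, mixed culture went with a higher level of nearly the whole synthesis route at 96 h. In TN mix, 22 of the 28 genes were higher and 1 was lower than in TN alone, where 7% of all genes were higher and 3.62% lower. The median difference of the 28 was 0.64, and that of all genes 0.05. By role, 16 of 18 enzymes, 3 of 5 sensing genes and 3 of 5 transport genes were higher. The largest differences were those of Msmo1, Insig1 and Hmgcs1, at 2.83-fold, 2.76-fold and 2.57-fold.

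Hmgcs1, which makes HMG-CoA at the head of the mevalonate pathway, had values of 10.17, 10.50 and 10.40 in TN mix and between 8.93 and 9.05 in TN alone at 96 h. Every mixed array lay above every array of TN alone, and the difference was 1.36 (SE 0.09, limma adjusted p = 3.27e-11). The next steps of the mevalonate pathway rose too: mevalonate kinase Mvk by 0.68, phosphomevalonate kinase Pmvk by 0.56, the decarboxylase Mvd by 0.76 and the isomerase Idi1 by 0.89. Among the isoprenoid and squalene steps, Fdps, which makes farnesyl diphosphate, rose by 0.57, and Fdft1, the squalene synthase, by 0.92.

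Sqle, the squalene epoxidase that carries out the first oxygen-dependent step, read 10.34, 10.62 and 10.45 in TN mix and 9.18, 9.42 and 9.48 in TN alone. The groups did not overlap, with a difference of 1.11 (SE 0.08, limma adjusted p = 2.73e-10). Lss, the cyclase that makes lanosterol, likewise stood 1.11 higher, at 9.70, 9.86 and 9.85 in TN mix and 8.56, 8.83 and 8.70 in TN alone. Of the enzymes in the stretch where lanosterol loses its methyl groups, Cyp51 rose by 1.27, the reductase Tm7sf2 by 0.85, Msmo1 by 1.50, Nsdhl by 0.80 and Hsd17b7 by 1.00. The Msmo1 values were 10.08, 10.76 and 10.68 in TN mix, the first of them set apart, and 8.93, 9.06 and 9.03 in TN alone. In the last steps, the desaturase Sc5d rose by 0.55 and the reductase Dhcr7 by 0.48, while the isomerase Ebp differed by 0.09 (SE 0.10, limma adjusted p = 0.679). Idi2 was near background in both groups at this time.

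Insig1, which is itself an SREBP target and holds SCAP in the endoplasmic reticulum, had values of 10.80, 11.15 and 11.04 in TN mix against 9.49, 9.58 and 9.54 in TN alone at 96 h. Its groups lay far apart (difference 1.46, SE 0.08, limma adjusted p = 2.75e-13). Srebf2, the gene of the SREBP that mainly drives cholesterol synthesis, rose by 0.60 (SE 0.08), and Srebf1, whose product mainly drives fatty acid synthesis, by 0.56 (SE 0.08). Insig2, a second retention protein, differed by 0.20 (SE 0.09, limma adjusted p = 0.207). Scap, the escort, was lower by the test, with a difference of -0.28 (SE 0.09, limma adjusted p = 0.0471). Stard4, a carrier that moves sterol between membranes, stood 0.97 higher, at 8.62, 8.97 and 8.80 in TN mix and 7.66, 7.92 and 7.91 in TN alone. Npc1, which exports cholesterol from lysosomes, was 0.44 higher and Abcg1, an efflux transporter, 0.33 higher, whereas Abca1, another efflux transporter, and Mylip, a ligase that degrades lipoprotein receptors, were not called (-0.17 and -0.02).

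Of the 23 calls at 96 h, 19 held under all 17 alternatives run, and those of Pmvk, Npc1, Abcg1 and Scap did not. With the replicate number as a block, Abcg1 and Scap were no longer called (limma adjusted p = 0.0539 and 0.0631). Npc1 and Abcg1 lost the call without any 1 of the 6 arrays, Scap without any except TN mix replicate 1, and Pmvk without TN mix replicate 2 or 3 (limma adjusted p over these losses 0.053 to 0.228).

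Other measures moved in the same comparison. Of the Y-linked transcripts, Kdm5d averaged 7.29, Uty 6.95 and Eif2s3y 7.64 in the mixed naive cells. In TN alone at 96 h they were near background, Kdm5d at 5.39, Uty at 4.36 and Eif2s3y at 4.17. Xist differed by -0.58 (limma adjusted p = 0.171). Markers of other cells were lower in TN mix: 5 of 8 B cell genes (array means 6.83 to 6.91, against 7.73 to 7.80 in TN alone) and 3 of 12 myeloid genes (6.71 to 6.89, against 7.29 to 7.30). The same held for 4 of 6 mast cell and basophil genes (5.70 to 5.94, against 6.48 to 6.71) and 2 of 4 CD4 T cell genes (6.45 to 6.73, against 7.19 to 7.26). Of the erythroid and platelet genes 1 of 3 was lower (6.52 to 6.76, against 6.82 to 6.96). Among these the platelet gene Pf4 averaged 6.28 in TN mix and 6.83 in TN alone, and the erythroid gene Alas2 6.48 and 6.51. Of the defining markers, Ms4a1 was near background in both groups, and Lyz2 stood at 5.47 in TN mix, near background, and 8.26 in TN alone. Cd4 itself was not lower, at 6.48 in TN mix and 6.36 in TN alone. In the CD4 T cell list Foxp3 averaged 7.30 in TN mix and 8.79 in TN alone, and Izumo1r 7.25 and 8.49. These markers were given as values only. Their part in the result was not tested, and in sorted bulk cells fewer cells of a type and less RNA per cell cannot be told apart.

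**Figure D1:**
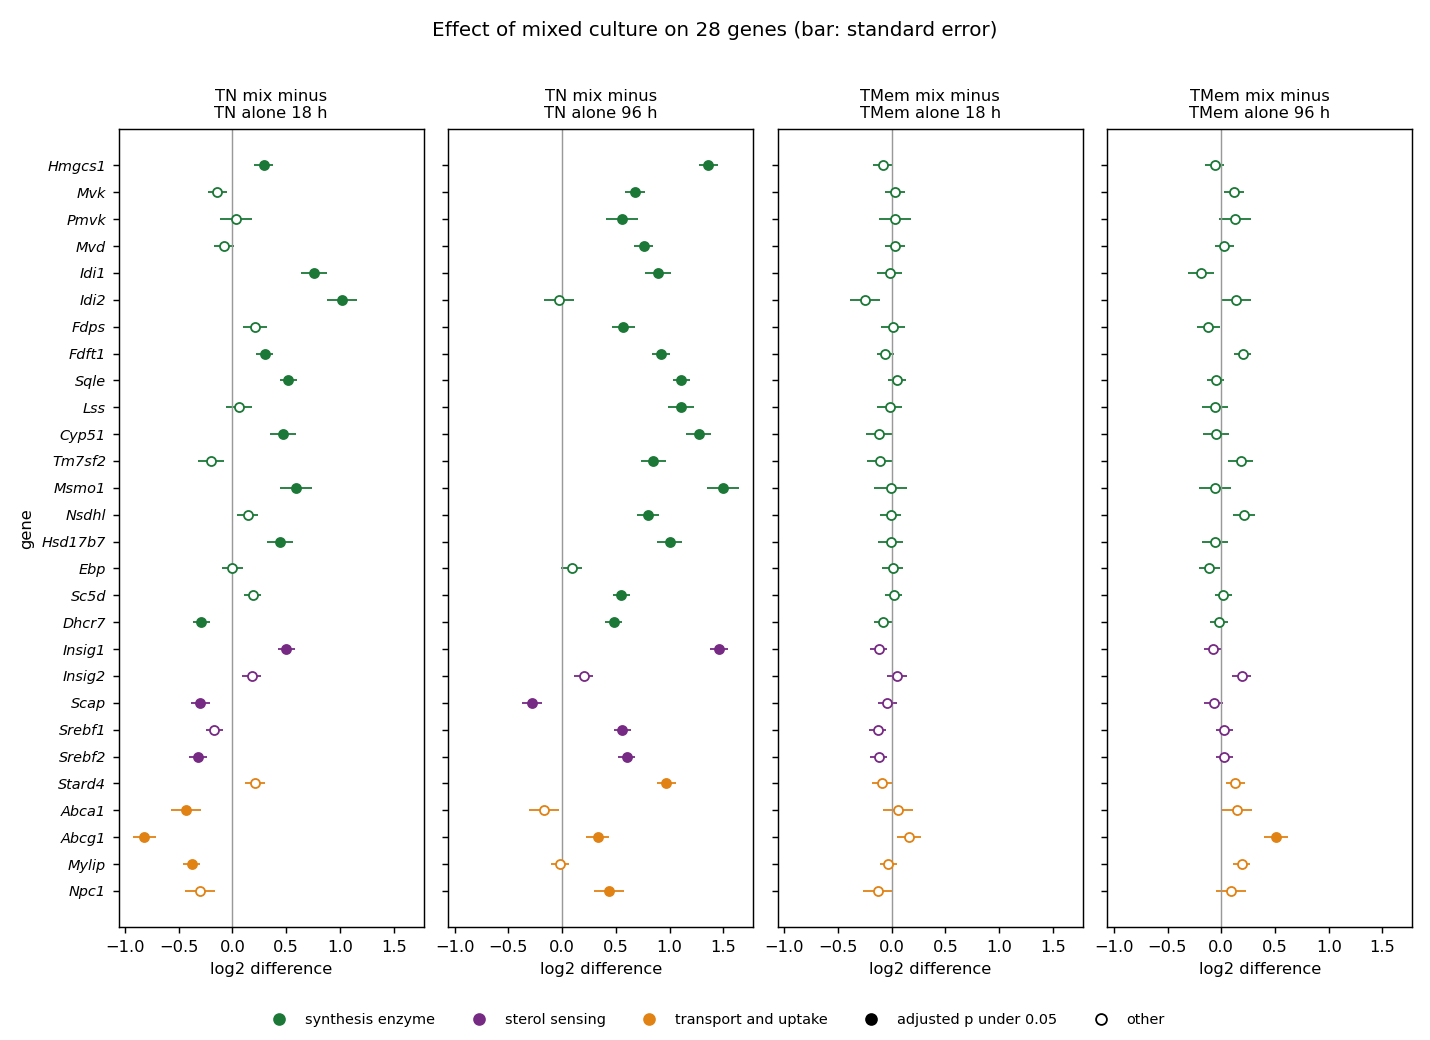
Log2 difference between mixed culture and culture alone (x axis) for 28 genes (y axis), in TN and TMem at 18 h and 96 h. Points are differences of 3 arrays against 3, bars are standard errors, filled points passed adjusted p under 0.05; at 96 h in TN 22 genes lie to the right as filled points, and in TMem 1 does.

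At 18 h the naive cells showed a smaller and mixed picture. In TN mix 9 of the 28 genes were higher and 6 lower than in TN alone, against 6.3% and 8.15% of all genes, with a median of 0.10 (all genes -0.01). The genes called higher were 8 enzymes and Insig1, and those called lower were 1 enzyme, 2 sensing genes and 3 transport genes. The enzymes higher were Idi2, Idi1, Msmo1, Sqle, Cyp51, Hsd17b7, Fdft1 and Hmgcs1, with differences of 0.76 (Idi1) to 0.29 (Hmgcs1) among those measured in both groups. Idi2 was near background in TN alone, and its difference is bounded at 0.59 or more.

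Idi1 had values of 10.42, 10.23 and 10.24 in TN mix and 9.57, 9.42 and 9.63 in TN alone at 18 h, with no overlap (difference 0.76, SE 0.12, limma adjusted p = 3.71e-05). Sqle stood 0.52 higher and Insig1 0.50 higher, also with no overlap. On the sensing side Srebf2 went the other way, at 10.35, 10.38 and 10.39 in TN mix and 10.72, 10.69 and 10.64 in TN alone (difference -0.32, SE 0.08, limma adjusted p = 0.00471), as did Scap (-0.30). Abcg1 was the most lowered gene, with values of 8.69, 8.46 and 8.64 in TN mix against 9.40, 9.47 and 9.38 in TN alone. Its groups were well separated (difference -0.82, SE 0.11, limma adjusted p = 3.11e-06). Mylip was lower by 0.38 and Abca1 by 0.43, and of the last enzymes Dhcr7 was lower by 0.29. None of the Y-linked genes or Xist was called in this comparison, and 0 of 12 myeloid genes were. Of the marker lists, 1 of 8 B cell genes was higher in TN mix, Cd74, which averaged 8.55 in TN mix and 7.82 in TN alone, and 1 of 6 mast cell and basophil genes, 1 of 4 CD4 T cell genes and 1 of 7 CD8 T cell genes were lower. Array means of B cell genes were 6.26 to 6.48 in TN mix and 6.40 to 6.44 in TN alone, and those of mast cell and basophil genes 5.39 to 5.52 in TN mix and 5.55 to 5.59 in TN alone. Their part was not tested.

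Idi1, Idi2, Sqle, Insig1, Srebf2, Abcg1 and Mylip kept their call under all 16 alternatives. Without TN mix replicate 1, 9 genes were called (5 higher, 4 lower), and Abca1, Cyp51, Fdft1, Hmgcs1, Hsd17b7 and Scap were not (adjusted p 0.0534 to 0.137). Abca1 also lost its call without any of the other 5 arrays but TN alone replicate 1. So did Hmgcs1 without any other array except TN mix replicate 2, and Fdft1 without TN alone replicate 1. Dhcr7 lost it without TN alone replicate 3 or TN mix replicate 2, and Msmo1 and Scap without TN alone replicate 2 (adjusted p over these 0.0506 to 0.12). Centred on array medians, Abca1, Dhcr7 and Scap were not called either (0.0852 to 0.101).

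In memory cells mixed culture left few traces in these genes. At 18 h, 0 of the 28 passed the limma test between TMem mix and TMem alone, nor did any have an unadjusted p under 0.05. Of all genes 0.0301% were called. The differences ran from -0.25 to 0.16, with standard errors of at most 0.15. At 96 h, 1 gene was higher and 0 were lower, against 0.968% and 0.15% of all genes, and 4 had an unadjusted p under 0.05. That gene was Abcg1, at 8.63, 8.64 and 8.57 in TMem mix and 8.01, 8.10 and 8.19 in TMem alone. The groups did not overlap (difference 0.51, SE 0.11), but the call was lost without TMem alone replicate 1, TMem mix replicate 1 or TMem mix replicate 2 (limma adjusted p = 0.0871, 0.0582 and 0.0548). Hmgcs1 read 10.77, 10.73 and 10.68 in TMem mix and 10.82, 10.75 and 10.77 in TMem alone, with overlapping arrays. Insig1 differed by -0.08 and Sqle by -0.05.

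The differences between these effects were tested in the same fit. At 96 h the mixing effect of TN exceeded that of TMem in 19 of the 28 genes and fell short in 0, against 3.54% of all genes called in either direction. The excess was 1.42 (SE 0.13) for Hmgcs1, 1.55 (SE 0.11) for Insig1, 1.56 (SE 0.21) for Msmo1, 1.15 (SE 0.12) for Sqle and 0.58 (SE 0.11) for Srebf2. Of the 19, 15 kept the call under all 22 alternatives; Tm7sf2 lost it without TMem alone replicate 2, TMem mix replicate 1 or TN mix replicate 2 (limma adjusted p = 0.0752, 0.0698 and 0.0579), and Nsdhl, Sc5d and Dhcr7 with arrays centred on their medians (0.0535 to 0.0729). At 18 h the effect was larger in TN for 5 genes and smaller for 1, against 5.17% of all genes. Idi1 (0.78), Insig1 (0.62) and Sqle (0.47) were among those 5, as was Idi2, whose size is not given since TN alone was near background, and Abcg1 (-0.98) was the gene with the smaller value. The call of Sqle was lost without TN mix replicate 1 (limma adjusted p = 0.0582). Cyp51, at 0.59, lost it in many alternatives (limma adjusted p up to 0.144, without TMem mix replicate 1). The Y-linked Eif2s3y, Kdm5d and Uty were also called in the contrast at 96 h. Eif2s3y averaged 7.64 in TN mix and 4.17 in TN alone, against 9.23 in TMem mix and 9.27 in TMem alone. Of the markers of other cells, several were lower in TN mix at 96 h, as given above. In TMem mix 0 were lower and 2 of 8 B cell genes were higher. The part of these transcripts and markers was not tested.

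Within TN, the mixing effect at 96 h was above that at 18 h in 20 genes and below it in 1, against 12.4% of all genes. Hmgcs1 gained 1.08 (SE 0.13), Lss 1.05 (SE 0.17), Tm7sf2 1.05 (SE 0.16) and Insig1 0.96 (SE 0.11), and the gene with the smaller effect at 96 h was Idi2, whose size is not given because 3 of the 4 groups were near background. Of the 21 calls, 17 held under all 22 alternatives, and those of Hsd17b7, Sc5d, Mylip and Npc1 did not. Abcg1 (1.15, SE 0.15), Srebf2 (0.92, SE 0.11) and Dhcr7 (0.77, SE 0.11) had been called lower in TN mix at 18 h and were called higher at 96 h. Within TMem, 0 of 28 differed between the times by the limma test (0.196% of all genes), with 2 at an unadjusted p under 0.05. The Y-linked Eif2s3y, Kdm5d and Uty were also called in the TN contrast, and Xist was not. Eif2s3y averaged 8.36 in TN mix and 8.14 in TN alone at 18 h. At 96 h it averaged 7.64 in TN mix and was near background in TN alone (4.17). The part of these transcripts and of the markers above was not tested.

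Before stimulation, memory cells already held more of most of these transcripts than naive cells. In TMem at 0 h, 19 of the 28 genes were higher and 4 lower than in TN, against 18.4% and 17.5% of all genes, and the median was 0.52 (all genes 0.02). The enzymes made up 13 of the 19, led by Sqle. It stood at 10.09, 9.88 and 9.93 in TMem and 8.43, 8.46 and 8.31 in TN, so that no arrays overlapped (difference 1.56, SE 0.08, limma adjusted p = 9.45e-15). Cyp51 was 1.52 higher and Lss 1.45 higher. The TN values of Lss were 7.26, 7.87 and 7.90, of which replicate 1 lay apart. Srebf2 had values of 10.72, 10.71 and 10.55 in TMem and 9.37, 9.65 and 9.62 in TN (difference 1.11, SE 0.08, limma adjusted p = 2.13e-12).

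The transport genes split at 0 h. Npc1 was higher in TMem (10.96, 10.88 and 10.32) than in TN (8.94, 9.76 and 9.63), a difference of 1.28 (SE 0.14) with no overlap but wide spread in both groups. Abca1 was lower in TMem, at 6.25, 6.31 and 6.08, than in TN, at 7.55, 8.39 and 8.50 (difference -1.93, SE 0.14, limma adjusted p = 5.10e-12). Mylip read 8.59, 8.66 and 8.49 in TMem and 10.02, 10.23 and 10.21 in TN (difference -1.57, SE 0.08). In both genes every TMem array lay below every TN array. Insig2 was 0.50 lower in TMem. Of the 23 calls, 19 held under all 15 alternatives, and those of Msmo1, Nsdhl, Insig1 and Abcg1 did not. Markers of other cells moved with this comparison: 4 of 6 mast cell and basophil genes (array means 6.34 to 6.97 in TMem, 5.57 to 5.82 in TN) and 4 of 12 myeloid genes (6.69 to 7.19 in TMem, 6.59 to 6.76 in TN) were higher in TMem, with 1 myeloid gene lower. Of the CD8 T cell genes 5 of 7 were lower and 1 higher (11.77 to 11.99 in TMem, 12.12 to 12.31 in TN). Cpa3 averaged 9.42 in TMem and 6.17 in TN, Lgals3 9.88 in TMem and 7.19 in TN, and Lyz2, Ms4a1 and Cd79a were near background in both; their part was not tested. The cell types also differ in the sex-linked transcripts above and in the culture in which TMem were differentiated, which cannot be told apart from the cell type here.

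When each cell type was stimulated alone, the gap between them persisted. At 18 h, 17 genes were higher and 3 lower in TMem alone than in TN alone (15.4% and 13.5% of all genes), and at 96 h 20 were higher and 2 lower (14.1% and 8.02%). At 96 h all 22 calls held under all 16 alternatives, with differences of 1.79 (SE 0.09) for Hmgcs1, 1.72 (SE 0.15) for Msmo1, 1.58 (SE 0.08) for Insig1 and 1.51 (SE 0.12) for Cyp51. At 18 h the largest after Idi2 were Msmo1 (1.44), Sqle (1.40), Idi1 (1.39) and Hsd17b7 (1.37) on the high side, and Abcg1 (-1.84) and Mylip (-1.28) on the low side. At 96 h array means of B cell genes were 6.19 to 6.28 in TMem alone and 7.73 to 7.80 in TN alone, and those of mast cell and basophil genes 5.79 to 5.84 in TMem alone and 6.48 to 6.71 in TN alone. Their part was not tested. Pmvk was the one of the 20 calls at 18 h that some alternatives ended.

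In mixed culture the gap was still wide at 18 h and narrow at 96 h. At 18 h, 19 genes were higher and 2 lower in TMem mix than in TN mix (11.8% and 8.64% of all genes). At 96 h only 4 were higher and 2 lower (6.68% and 3.94%), and the median difference was 0.12. Sqle differed by 0.11 (SE 0.08), Insig1 by 0.03 (SE 0.08) and Cyp51 by 0.19 (SE 0.12), none of them called, while Hmgcs1 was 0.37 higher in TMem mix (SE 0.09, limma adjusted p = 0.00681). Abcg1 (-0.55) and Mylip (-0.38) were lower in TMem mix and kept the call under all 16 alternatives. Hmgcs1, Sc5d, Npc1 and Hsd17b7 did not, and without TN mix replicate 1 only 3 genes were called. How far the gap was narrower in mix than alone is the same contrast as the excess of the TN mixing effect above.

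**Figure D2:**
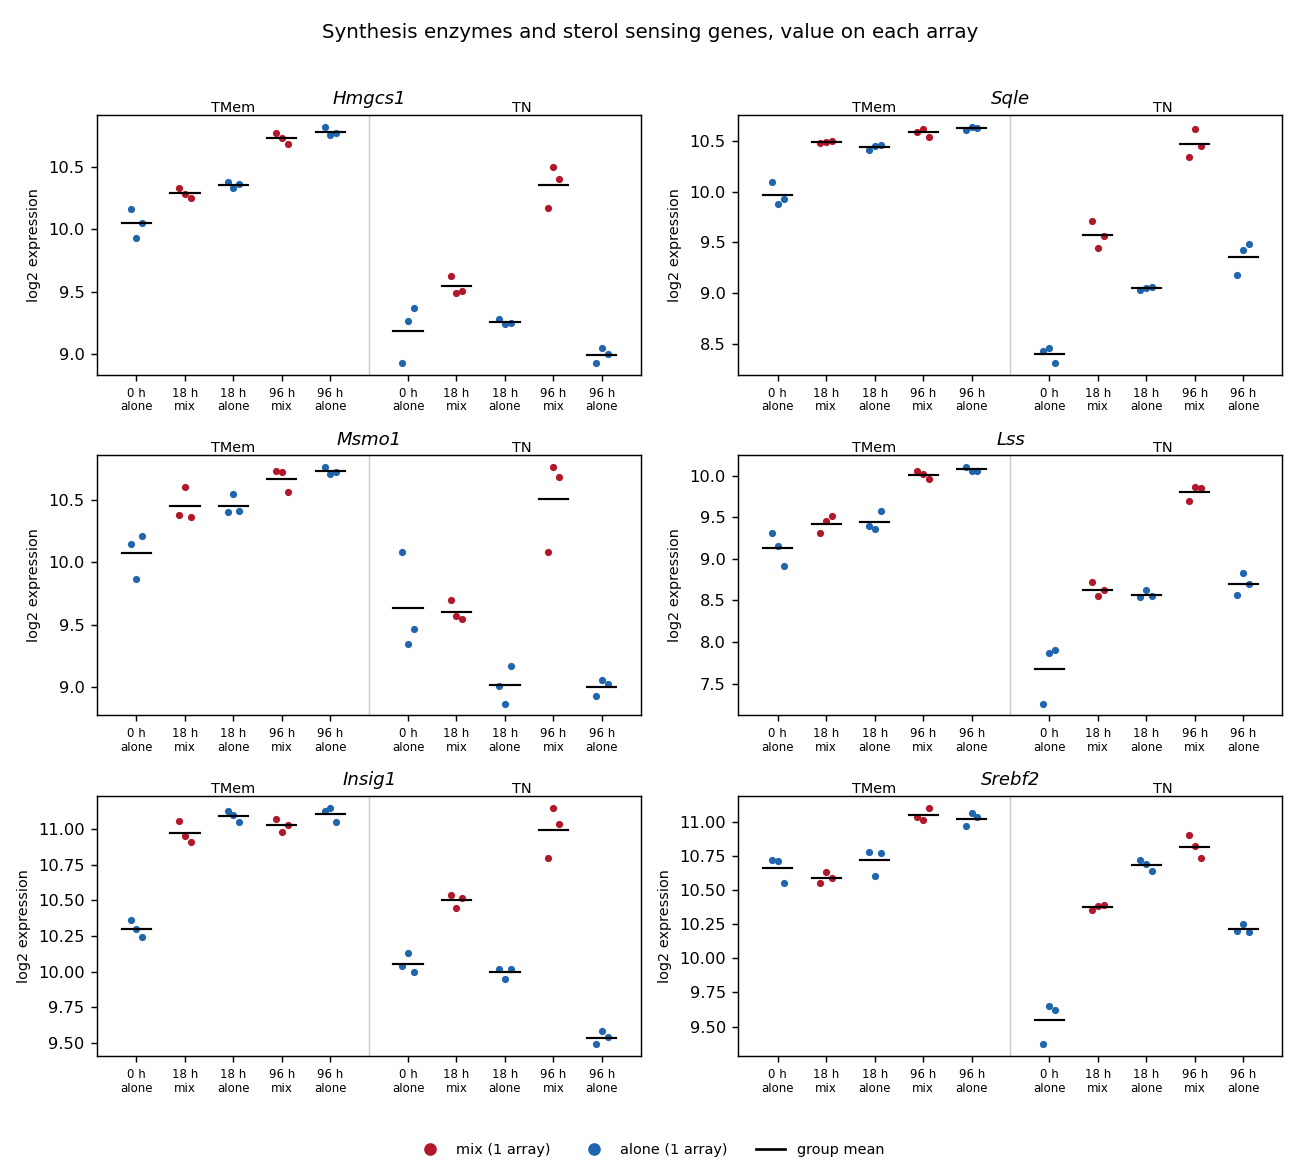
Log2 expression (y axis) of 4 enzyme genes and 2 sensing genes on each array by group (x axis), TMem on the left and TN on the right of each panel; red points are mixed cultures, blue points cultures alone, lines group means of 3 arrays. In TN at 96 h the red points lie above the blue ones in all 6 panels, whereas at 18 h those of Srebf2 lie below.

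The mean level of the 18 enzymes was also taken per array. In TMem it was 9.07 at 0 h, at 18 h 9.42 in mix and 9.45 alone, and at 96 h 9.58 in mix and 9.57 alone (means of 3 arrays, SD at most 0.09). In TN it was 8.45 at 0 h, at 18 h 8.75 in mix and 8.51 alone, and at 96 h 9.45 in mix and 8.65 alone (SD at most 0.10). Idi2, near background in 7 groups, weighed on this course: without it TMem stood at 9.32 at 0 h, at 18 h at 9.43 in mix and 9.45 alone, and at 96 h at 9.85 in both. TN without it stood at 8.65 at 0 h, at 18 h at 8.88 in mix and 8.69 alone, and at 96 h at 9.72 in mix and 8.87 alone. With or without Idi2, TN alone at 96 h lay below TMem at 0 h. This is a description of the members as chosen, and no test was made of it.

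Stimulation of naive cells without memory cells did not raise the route as a whole. In TN alone at 18 h against 0 h, 9 genes were higher and 9 lower (17.1% and 16.7% of all genes), and at 96 h against 0 h 13 were higher and 7 lower (18.6% and 17.9%), with medians of -0.02 and 0.01. Of the 18 enzymes, 6 were higher and 5 lower at 18 h, and 8 were higher and 2 lower at 96 h. The enzyme medians were 0.05 and 0.01. Sqle, Lss and Cyp51 rose at both times, by 0.65, 0.90 and 0.74 at 18 h and by 0.96, 1.02 and 0.71 at 96 h. Srebf2 rose by 1.14 at 18 h, with values of 10.72, 10.69 and 10.64, against 9.37, 9.65 and 9.62 at 0 h, and Scap rose by 1.01. Hmgcs1 was not called at either time against 0 h. Msmo1 fell by 0.62 at 18 h and by 0.63 at 96 h, but TN alone 0 h replicate 1 (10.08) lay above the others (9.35 and 9.47), and without it the differences were -0.39 and -0.40. Insig1 was lower at 96 h than at 0 h (-0.52). Under all 15 alternatives 15 of the 18 calls at 18 h and 16 of the 20 at 96 h held, those named here included.

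Efflux transporters and Mylip went down in naive cells on stimulation. Abca1 had values of 7.55, 8.39 and 8.50 in TN at 0 h, of 6.80, 6.98 and 7.01 in TN alone at 18 h and of 6.42, 6.28 and 6.38 in TN alone at 96 h. Both later groups lay below every 0 h array, with differences from it of -1.22 at 18 h and -1.79 at 96 h. Mylip fell by 1.02 at 18 h and 1.64 at 96 h, and Abcg1 by 0.89 at 96 h. Insig2 was lower by 0.61 at 18 h. Npc1 rose by 0.61 at 96 h, or by 0.36 without TN alone 0 h replicate 1. From 18 h to 96 h in TN alone, 7 genes went up and 7 down (11.3% and 13.1% of all genes), among them Dhcr7 (0.67), Ebp (0.54) and Fdps (0.43) up and Mylip (-0.62), Abcg1 (-0.58), Srebf2 (-0.47) and Insig1 (-0.46) down. Other measures moved along this course. Eif2s3y averaged 8.14 in TN alone at 18 h and was near background at 0 h and 96 h. Array means of B cell genes lay at 6.38 to 6.67 at 0 h, 6.40 to 6.44 at 18 h and 7.73 to 7.80 at 96 h, and those of mast cell and basophil genes at 5.57 to 5.82, 5.55 to 5.59 and 6.48 to 6.71 at these times. Myeloid genes stood at 6.59 to 6.76, 6.52 to 6.63 and 7.29 to 7.30, with Lyz2 near background at 0 h and 18 h and at 8.26 at 96 h. Their part in these results was not tested.

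In TN mix the step between the times was broader: 21 genes were higher and 2 lower at 96 h than at 18 h (20.6% and 16.5% of all genes), with a median of 0.78. Dhcr7 led with 1.45 (SE 0.08), at 9.40, 9.40 and 9.34 at 96 h and 7.98, 7.85 and 7.97 at 18 h. Tm7sf2 (1.34), Mvd (1.19), Npc1 (1.18), Lss (1.17) and Stard4 (1.11) followed, and 21 of the 23 calls held under all 16 alternatives. Hmgcs1, at the head of the route, rose by 0.81.

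Memory cells stimulated alone raised most of the route by 96 h. In TMem alone at 96 h, 20 genes were higher and 2 lower than at 0 h (16.1% and 8.44% of all genes), with a median of 0.37. Hsd17b7 (1.08), Lss (0.95), Insig1 (0.81), Hmgcs1 (0.74) and Sqle (0.66) rose, each with SE of 0.12 or less. Abcg1 (-1.16) and Mylip (-0.65) fell. Of the 22 calls, 15 held under all 15 alternatives. Those of the enzymes Fdps, Fdft1, Tm7sf2, Nsdhl, Ebp and Sc5d and of Srebf1 did not. Array means of mast cell and basophil genes were 5.79 to 5.84 at 96 h and 6.34 to 6.97 at 0 h, and their part was not tested. At 18 h the picture was mixed, with 9 higher and 6 lower (18% and 17.3% of all genes): Hsd17b7 rose by 1.33 and Idi1 by 0.85, while Mvk (-0.41), Tm7sf2 (-0.64) and Dhcr7 (-0.44) fell.

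Abcg1 had the most negative difference of the 28 genes in TMem alone at 18 h against 0 h. Its values were 7.60, 7.50 and 7.64 in TMem alone at 18 h and 9.18, 9.48 and 9.13 at 0 h, with a wide gap between them (difference -1.68, SE 0.11, limma adjusted p = 5.08e-13). Between 18 h and 96 h, 15 genes were higher and 1 lower at 96 h in TMem alone (14.6% and 9.87% of all genes) and 18 were higher and 2 lower at 96 h in TMem mix (16.1% and 11.5%). Tm7sf2 (1.34 in mix, 1.05 alone), Dhcr7 (0.95 in mix, 0.89 alone), Npc1 (0.99 in mix, 0.77 alone) and Mvk (0.73 in mix, 0.64 alone) rose in both, and Idi2 fell in both.

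The response to stimulation differed between the cell types in 15 genes at 18 h (7 with a more positive difference in TMem, 8 with a more negative one) and in 12 at 96 h (10 more positive, 2 more negative), against 28.9% and 29.7% of all genes. At 96 h the excess of TMem was 1.33 (SE 0.11) for Insig1, 1.27 (SE 0.21) for Msmo1, 0.93 (SE 0.13) for Hmgcs1 and 0.85 (SE 0.13) for Mvd. Abca1 (1.56) and Mylip (0.98) also had positive values there, since they fell less in TMem than in TN. Abca1 lay just above the lower quartile of the TMem arrays, at 6.21 against 5.96 at 0 h and 5.99 against 5.91 at 96 h. A fall of Abca1 in TMem could thus hardly be measured, and its value cannot be read as a weaker response. At 18 h the values of Srebf2 (-1.08), Scap (-0.70) and Srebf1 (-0.60) were negative because these genes were raised less in TMem than in TN or not raised there. That of Abcg1 (-1.38) was negative because it fell more in TMem, by 1.68, than in TN, where the difference was -0.31. Under all 21 alternatives 9 of the 15 calls and 9 of the 12 held, those named here included. The comparisons with 0 h share their 0 h arrays.

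**Figure D3:**
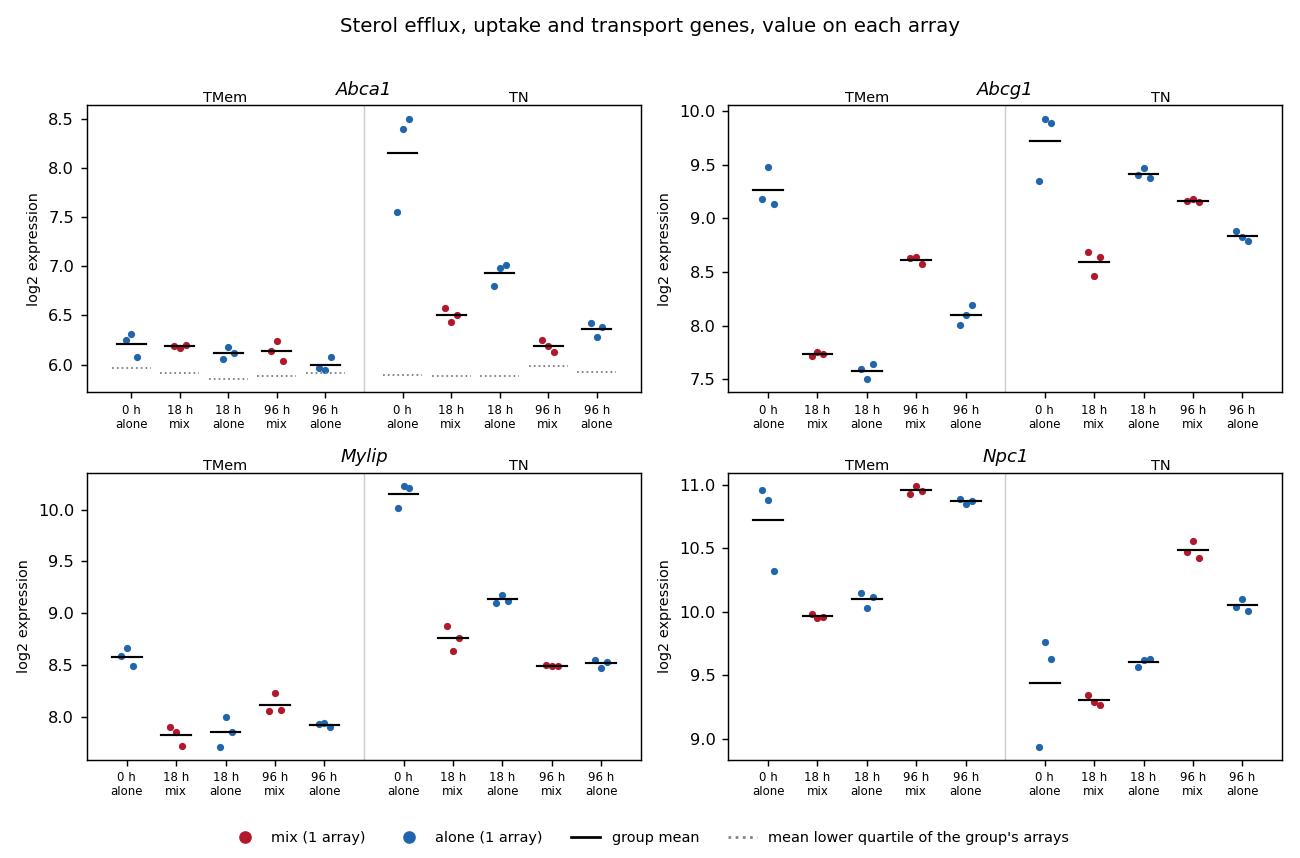
Log2 expression (y axis) of 4 transport and uptake genes on each array by group (x axis), TMem left and TN right, red for mixed cultures and blue for cultures alone, with group means as lines and, for Abca1, the mean lower quartile of each group's arrays as dotted lines. Abca1 stands at 8.15 on average in TN at 0 h and at 6.93 or less in all other groups, and Abcg1 is lowest in TMem at 18 h.

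Idi2 had a course of its own. The gene encodes a second isopentenyl diphosphate isomerase and lies beside Idi1. It read 9.07, 9.28 and 9.20 in TMem mix at 18 h and 9.26, 9.52 and 9.52 in TMem alone at 18 h. In TN mix at 18 h it read 6.65, 6.48 and 6.31, and in the other 7 groups the means lay near background, at 4.85 to 5.46. The groups at 18 h with TMem thus stand clear of all others, and TN mix at 18 h stands clear of the groups near background. Against TMem at 0 h, whose level is only bounded by the lower quartile of its arrays, TMem alone at 18 h was at least 11.1-fold higher (limma adjusted p = 1.53e-19, fitted difference 4.58). TMem alone at 18 h was at least 11.7-fold above TN alone at 18 h, and TN mix at 18 h at least 1.51-fold above TN alone.

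By 96 h Idi2 was back near background in both TMem groups, at least 9.84-fold lower in TMem mix and at least 11.5-fold lower in TMem alone than at 18 h. Idi1, which serves the same step, changed far less. It averaged 10.91 in TMem mix and 10.93 in TMem alone at 18 h, and 10.44 in TMem mix and 10.63 in TMem alone at 96 h. A second row of the array for Idi2 gave group means of 9.30 in TMem mix and 9.53 in TMem alone at 18 h and of 6.61 in TN mix at 18 h, with 4.72 to 5.51 elsewhere. Since Idi1 and Idi2 are related copies, probes of one may in part read the other, which was not tested. At 96 h, with Idi1 at 10.44 in TMem mix and 10.63 in TMem alone, both Idi2 rows were near background.

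**Figure D4:**
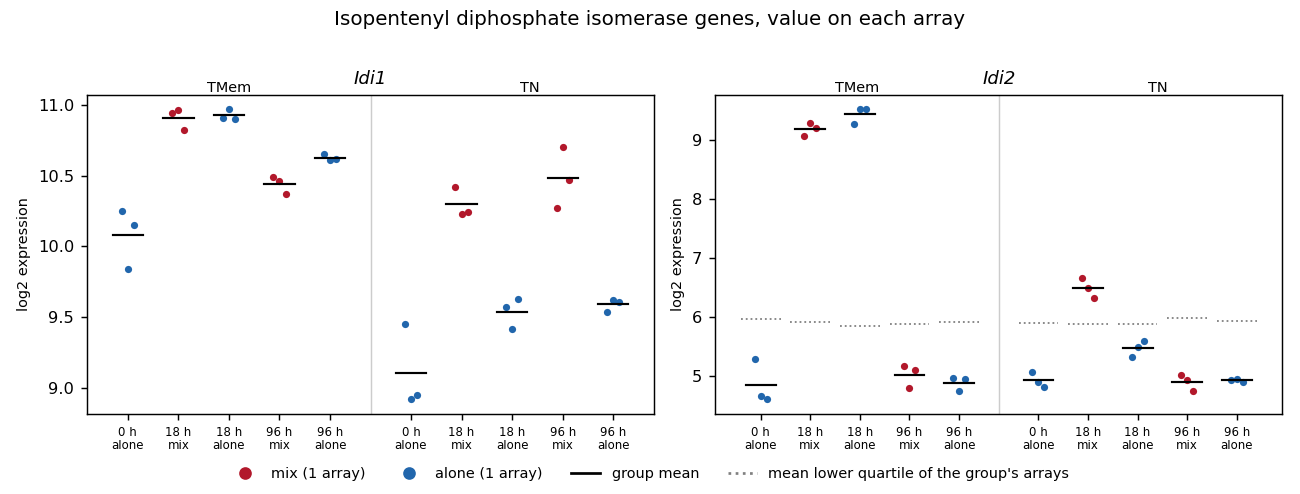
Log2 expression (y axis) of Idi1 and Idi2 on each array by group (x axis), TMem left and TN right, red for mixed cultures and blue for cultures alone; lines are group means and dotted lines the mean lower quartile of each group's arrays, below which Idi2 is near background. Idi2 lies above 9 in the TMem groups at 18 h and at 6.48 on average in TN mix at 18 h, and Idi1 spans a far narrower range.

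Across the 10 group means, most enzymes ran together. The highest mean of 7 enzymes was in TMem alone at 96 h and of 6 in TMem mix at 96 h. That of 3 was in TMem alone at 18 h and that of 2 in TN mix at 96 h. The lowest mean of 8 enzymes was in TN at 0 h and of 5 in TN mix at 18 h. That of 2 was in TN alone at 18 h, of 2 in TN alone at 96 h and of 1 in TMem at 0 h. The correlation of a gene with the mean of the enzymes (which contains each enzyme, over 10 groups that share arrays and normalization) is a description only. It was 0.973 for Stard4, 0.970 for Sc5d, 0.969 for Hmgcs1 and Sqle and 0.904 for Insig1. Among the enzymes it was lower for Mvd (0.771), Pmvk (0.752), Mvk (0.717), Dhcr7 (0.591), Tm7sf2 (0.493), Ebp (0.449) and Idi2 (0.292). It was negative for Insig2 (-0.258), Abcg1 (-0.668), Abca1 (-0.758) and Mylip (-0.833).

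**Figure D5:**
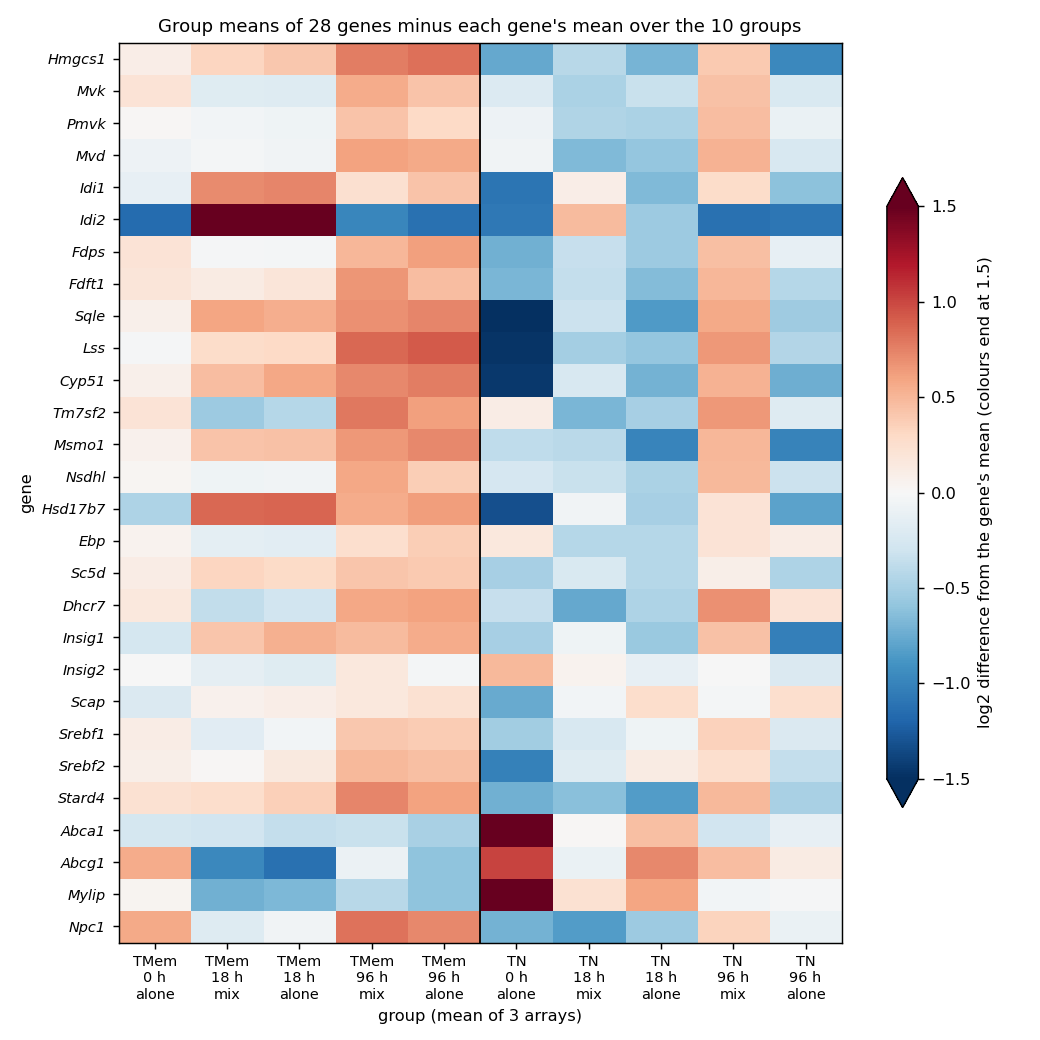
Group means (columns, 3 arrays each, TMem left and TN right) of 28 genes (rows), each minus the gene's mean over the 10 groups, on a log2 colour scale from blue (lower) to red (higher) that ends at 1.5. The enzymes are mostly red in both TMem columns at 96 h and in TN mix at 96 h and mostly blue in TN alone, and Abca1 and Mylip are darkest red in TN at 0 h.

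Genes next to these pathways were counted in the same way. Of 48 genes of acetyl-CoA supply, isoprenoid use, sterol sensing and lipoprotein handling, 41 had a row. In TN mix against TN alone at 96 h, 8 were higher and 1 lower (7% and 3.62% of all genes), with a median of 0.06 (all genes 0.05). At 18 h, 7 were higher and 5 lower (6.3% and 8.15% of all genes), with a median of 0.06 (all genes -0.01). Aacs, which makes acetoacetyl-CoA in the cytosol, stood 0.51 higher at 96 h, Lbr, a lamin B receptor with sterol reductase activity, 0.46 higher, and Gramd1a, a sterol carrier at membrane contacts, 0.43 lower. At 18 h Acss2, an acetyl-CoA synthetase, differed by -1.28 and Gramd1a by -1.06, while Tmem97 (0.49) and Zmpste24 (0.46) were higher, but Zmpste24 was not called with the mean of all its rows (limma adjusted p = 0.242). In TMem, 0 of the 41 were called at 18 h (0.0301% of all genes). At 96 h 1 was higher, Acss2 (0.40), and 0 were lower, against 0.968% and 0.15% of all genes.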

How the data were processed

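Expression was measured on 30 Affymetrix mouse gene arrays, 3 for each of 10 groups. RNA was extracted with QIAGEN kits and amplified as whole transcriptome cDNA, per the labels' protocols. The deposited values are log2 expression values; the submitters' processing notes name RMA and Partek, with no version. They span 2.05 to 14.16. Of 35556 rows, 21789 have 1 gene symbol, 1621 several and 12146 none here. Symbols were updated through gene numbers for 21698 rows and kept for 91. This gave 19938 genes, and for the 999 with more than 1 row the row with the highest mean was used.

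A linear model with 1 mean per group (limma 3.58.1 in R 4.3.3, lmFit and eBayes, 20 residual degrees of freedom) gave each difference, with Benjamini-Hochberg adjustment over all genes in each comparison and a threshold of 0.05. It was tested on simulated data. The submitters call the 3 arrays of a group biological repeats, but labels do not tie arrays of TN and TMem in mix to one culture. Arrays bearing the same repeat number deviated together in TN mix and TN alone at 96 h (correlations 0.137 to 0.489), so these count as paired by the correlation of every pair being over 0.1, a rule and not a label. In the other mixing comparisons the correlations did not all reach it. No batch labels were used.

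The 28 genes, the lists and the tests were chosen with earlier results of these data known. The genes described are the members, with values of those that differed most in the mixing comparisons or have a named role; of the neighbouring genes, those with the smallest adjusted p in each direction are named, at most 2 per direction. Alternatives were quantile normalization, centring on array medians, array weights, eBayes with trend and robust settings, the mean of a gene's rows, a filter on low values (15861 genes kept), only the groups compared, the replicate block, mixed culture pairs as a random block and leaving out each array; leaving out the 0 h arrays, and the block with only the groups compared, were chosen after seeing the data. Promoter windows of 300 bases came from RefSeq.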

Additional observations from a re-analysis of the deposited data

Results flagged for a closer look

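The mixing effect differed between times or cell types in several of the 28 genes by a test of the difference itself (limma). In TN, 21 of the 28 genes differed between 96 h and 18 h, against 12.4% of all genes. Between TN and TMem, 6 differed at 18 h (5.17% of all genes) and 19 at 96 h (3.54%). The Y-linked Eif2s3y, Kdm5d and Uty were called too, in TN between the times and between TN and TMem at 96 h. Their part was not tested. Srebf2, Abcg1 and Dhcr7 were called in opposite directions at the 2 times in TN, and their effects at 96 h lay 0.92, 1.15 and 0.77 above those at 18 h. The calls of Abcg1 at 96 h and of Dhcr7 at 18 h did not hold in every alternative.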

How the results depend on the processing

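Among counts of called genes, 5 moved by over 1.5 times outside the sets with an array left out. For TMem mix against TN mix at 96 h, 11 genes were called with array weights and 6 in the fit reported. For the mixing effect of TMem at 96 h minus 18 h, 1 was called with array weights, against 0. For the mixing effect of TN minus that of TMem at 18 h, the count was 13 when arrays were weighted, 10 when other groups stayed out of the fit and 12 without the 0 h arrays, against 6. With an array left out, the counts ran from 9 to 13 for the 18 h contrast of TN mix with TN alone (15 reported), from 0 to 1 for TMem mix against TMem alone at 96 h (1 reported) and from 3 to 6 for TMem mix against TN mix at 96 h (6 reported). The sign of a called value turned with array weights for Pmvk in TN alone at 96 h against 0 h (0.25, limma adjusted p = 0.00697) and for Idi2 in TMem against TN at 0 h (0.33, limma adjusted p = 0.0232), neither called in the fit reported, and Idi2 near background in both groups. The cause was not tested.

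With the replicate number as a block, TN mix against TN alone gave 21 called genes at 96 h (23 reported) and 15 at 18 h (15 reported). It gave 0 and 1 for the mixing comparisons of TMem at 18 h and 96 h, as reported, and 19 for TMem mix against TN mix at 18 h (21 reported) and 5 at 96 h (6 reported).

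Over all genes, TN mix against TN alone had 2881 calls at 18 h, 4853 with array weights and 1897 without TN alone replicate 2, and at 96 h 2117, 6343 with array weights and 3208 without the 0 h arrays. For TMem mix against TMem alone there were 6 calls at 18 h and 100 with array weights, and 223 at 96 h and 906 with array weights. With 3 arrays a group, small differences of genes near background cannot be resolved.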

Other observations

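Genes outside the list whose group means ran most like the mean of the enzymes were Axl, a receptor tyrosine kinase, Scd1, a fatty acid desaturase, Eif4ebp1, a translation repressor, Vcl, Acly, which makes cytosolic acetyl-CoA, Mt2, a metallothionein, Asns, the asparagine synthetase, and Ak4. Their Pearson correlations over the 10 group means were 0.985, 0.980, 0.980, 0.976, 0.975, 0.974, 0.972 and 0.972 in that order, from the same arrays and normalization. Their group means spanned different ranges, 6.49 for Scd1, 5.91 for Asns and 1.03 for Acly on the log2 scale. This describes likeness only, with no test.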
